A study of Mus musculus with 6 samples.

Results

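The contractile apparatus of skeletal muscle was followed through 35 genes in whole back skin of mice that had received an imiquimod cream or a vehicle cream. The 35 genes were listed by name and their probes were found by the gene name in the array files. All 35 were on the array, with 68 probes, and all 35 were among the 17779 genes tested, so no listed gene is missing from the counts below. They comprise 8 genes of the thick filament, 10 of the thin filament, 8 of the Z-disc, titin and desmin, 5 of calcium handling and 4 of energy and oxygen supply. The RNA came from female mice of the inbred strain C57BL/6J, aged 6 to 8 weeks. Both groups had the back shaved and a cream put on it each day for 7 days, 62.5 mg per day. One cream held 5% imiquimod, an agonist of Tlr7 that provokes a psoriasis-like inflammation, and the other was the vehicle of that cream. Each group had 3 samples, and each sample was measured on 1 single-colour Agilent array. The labels do not state whether the samples of a group came from separate animals, so a p-value here is set by how far these samples lay apart, and part of that distance may be technical.

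In a sarcomere, thick filaments of myosin pull on thin filaments of actin that are anchored at the Z-disc, and calcium released from the sarcoplasmic reticulum starts the movement through troponin and tropomyosin. Fast and slow muscle fibres use different genes of the same families, and the fast fibres are further divided by their myosin heavy chain: Myh2 in type IIa, Myh1 in type IIx and Myh4 in type IIb fibres. Mouse back skin carries a thin sheet of skeletal muscle beneath the dermis, the panniculus carnosus, so a whole-skin sample can hold fibres of this sheet along with epidermis, dermis and fat.

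The records conflict on which array had which treatment. The file name of each of the 6 arrays gives the treatment that its own sample record does not have. In the deposited value table, the column titled for a sample matched the array named for that treatment in 6 of 6 cases, with a Spearman correlation of at least 0.99999973 over 24256 probes. The array filed under the sample correlated with its column at only 0.943 to 0.952. Arrays are therefore called here by the treatment in their names, and each difference is the mean log2 signal on the 3 arrays named for imiquimod minus that on the 3 arrays named for vehicle. Read by the sample records instead, each difference keeps its size and takes the opposite sign. In this naming Krt6b, an epidermal keratin induced on wounding, differed by 5.41 (SE 0.33, adjusted p = 0.00142), and Lcn2, an iron-binding antimicrobial protein, by 4.46 (SE 0.34, adjusted p = 0.00178). Both are known to rise in imiquimod-treated skin.

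Values are log2 processed signals minus the 75th percentile of the probes on the same array, so 0 is the brightness of the 75th percentile probe. Probes well above background made up 61.2% to 67.4% of each array, and its 75th percentile signal was 861 to 1106. Precision is limited by how few arrays there are. Of the 35 genes, 33 were well above background on all 6 arrays, and Myh7 and Tnnc1 were dim on some of them. None was saturated. Epidermal and dermal markers were measured too: all 8 keratinocyte and all 8 fibroblast markers passed the filter. The headers place on slide 1 the 3 arrays named for vehicle and array 1 named for imiquimod, and on slide 2 arrays 2 and 3 named for imiquimod. Arrays 2 and 3 named for vehicle had the extraction quality status "evaluate".

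The 3 neighbouring fast myosin heavy chain genes gave the widest contrast within the list, so the sequences by which they were measured are shown first. They lie next to each other on chromosome 11 in the order Myh2, Myh1, Myh4. Their coding sequences are much alike, and each 60-base probe below is a second probe of its gene beside the brightest. Myh1 and Myh4 have 1 such probe. Of the 3 of Myh2, one overlaps the brightest probe and one was well above background on only 3 of the 6 arrays, so the remaining one is shown, a choice made after the values were seen. The longest run that any of them shares with another is 7 bases. This sets the printed probes only against each other. Whether each probe reads its own gene alone was not tested. The positions are mm9, plus strand, as the array files give them: chr11:67006311-67006475 for Myh2, chr11:67022830-67023932 for Myh1 and chr11:67072804-67072863 for Myh4. The spans for Myh2 and Myh1 are longer than the probe and so cross at least 1 intron. The probes read without a stop codon in 2 frames for Myh2 and in 1 frame each for Myh1 and Myh4.
Myh2: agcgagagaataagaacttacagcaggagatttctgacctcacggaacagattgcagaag
Myh1: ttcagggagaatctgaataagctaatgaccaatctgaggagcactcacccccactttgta
Myh4: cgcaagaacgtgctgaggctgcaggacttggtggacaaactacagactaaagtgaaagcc

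The promoters of these genes are shown because the genes are neighbours of 1 family whose signals moved apart. RefSeq sequences of GRCm38.p6 give the 250 bases before each start, all on the plus strand: chr11:67170777-67171026 for Myh2, chr11:67199852-67200101 for Myh1 and chr11:67237562-67237811 for Myh4. Capitals mark a run of 20 bases that all 3 share. It begins 130 bases before the start of Myh2, 165 before that of Myh1 and 163 before that of Myh4.
Myh2: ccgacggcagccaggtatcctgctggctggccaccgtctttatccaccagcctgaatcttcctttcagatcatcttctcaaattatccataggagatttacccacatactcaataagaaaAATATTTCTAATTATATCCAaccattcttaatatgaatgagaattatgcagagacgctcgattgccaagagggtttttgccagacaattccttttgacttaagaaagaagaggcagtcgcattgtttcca
Myh1: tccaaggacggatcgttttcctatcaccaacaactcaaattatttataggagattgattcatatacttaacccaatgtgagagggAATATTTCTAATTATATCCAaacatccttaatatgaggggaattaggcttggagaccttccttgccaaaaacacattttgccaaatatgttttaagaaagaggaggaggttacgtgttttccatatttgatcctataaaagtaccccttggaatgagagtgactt
Myh4: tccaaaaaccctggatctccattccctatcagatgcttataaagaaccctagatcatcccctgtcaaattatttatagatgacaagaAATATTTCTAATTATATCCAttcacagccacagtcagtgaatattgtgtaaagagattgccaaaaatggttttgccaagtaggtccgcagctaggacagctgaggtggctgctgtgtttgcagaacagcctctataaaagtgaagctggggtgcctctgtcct

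Motifs were counted on both strands of these windows. The E-box CANNTG, bound by Myod1 and its relatives, occurs 2 times before Myh4, at 221 and 67 bases from the start, and 0 times before Myh1 and Myh2. The MEF2 motif occurs 1 time before Myh1 (211 bases) and 1 time before Myh4 (182 bases), in both overlapping a TATAAA match on the other strand, and 0 times before Myh2. A CArG box occurs 1 time before Myh4 (104 bases) and 0 times before Myh1 and Myh2. Of the 35 genes, 28 had a promoter entry, and the first entry was used for the 5 that had several. An E-box was in 85.7% of these 28 windows against 66.2% of all 32851 promoter windows of this length. The shares of all windows count every promoter entry and were not reduced to 1 entry per gene. The shares were 17.9% against 2.92% for MEF2, 3 of 28 windows against 1.47% for the CArG box and 17.9% against 12.4% for TATAAA. A match of letters is a description of the window, and the absence of one says nothing of a factor.

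Most contractile genes had a lower mean signal on the arrays named for imiquimod, and most of these differences were smaller than the range of the arrays named for vehicle. Of the 35 genes, 32 had a negative difference (91.4%, against 48.0% of all genes tested), and the median difference was -0.55 against 0.02. Mb, the oxygen-binding protein of muscle, and Myh1, the type IIx heavy chain, were lower at an adjusted p under 0.05 in limma, and 0 genes were higher, against 13.1% of all genes. The 2 called genes are read against 23.6% of all genes tested that were called in either direction and 10.5% that were called lower, so the share of the contractile genes called was below the background. At an unadjusted p under 0.05 there were 5 (Mb, Myh1, Myh2, Neb and Ttn), against 39.0% of all genes. In 4 genes (Mb, Myh1, Myh2 and Ttn) every array named for imiquimod lay below every array named for vehicle, against 20.7% of all genes, and the reverse was seen in 0 genes, against 25.9%. The calls did not hold when the slide was a block, where the smallest adjusted p among the 35 genes was 0.195 and 0 were called, against 5.98% of all genes. That fit compares array 1 named for imiquimod with the 3 arrays named for vehicle, since slide 2 held 1 group, and its differences were -1.45 for Mb and -1.52 for Myh1. The count was also 0 without array 1 named for vehicle (9.53% of all genes called), without array 1, 2 or 3 named for imiquimod (10%, 10.3% and 10.6%), or without both arrays of status "evaluate" (16.7%). It was 7 without array 2 named for vehicle (26.3%), where Cacna1s, Myot, Pygm, Tnnt3 and Ttn joined Mb and Myh1, and 3 without array 3 named for vehicle (25.3%), where Tnni1 joined them.

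The spread between arrays of a group was the main feature of these genes. The median SD within groups was 0.67 on the log2 scale, against 0.22 over all genes tested, and it exceeded 0.5 in 32 of the 35 genes against 15.6% of all genes. Spread was wider among the arrays named for vehicle (median SD 0.85, against 0.23 for all genes) than among those named for imiquimod (0.46, against 0.15). The 3 arrays named for vehicle spanned a median of 1.66 per gene, and the 3 named for imiquimod spanned 0.90. In 33 of the 35 genes (94.3%, against 59.1% of all genes) the difference between group means was smaller than the range of the arrays named for vehicle. The 2 exceptions were Mb and Myh1. Set against the SD within groups in place of that range, the difference was larger in 16 genes (45.7%, against 66.3% of all genes). A difference over 1 in either direction was found in 7 genes (20.0%, against 15.4% of all genes).

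**Figure D1:**
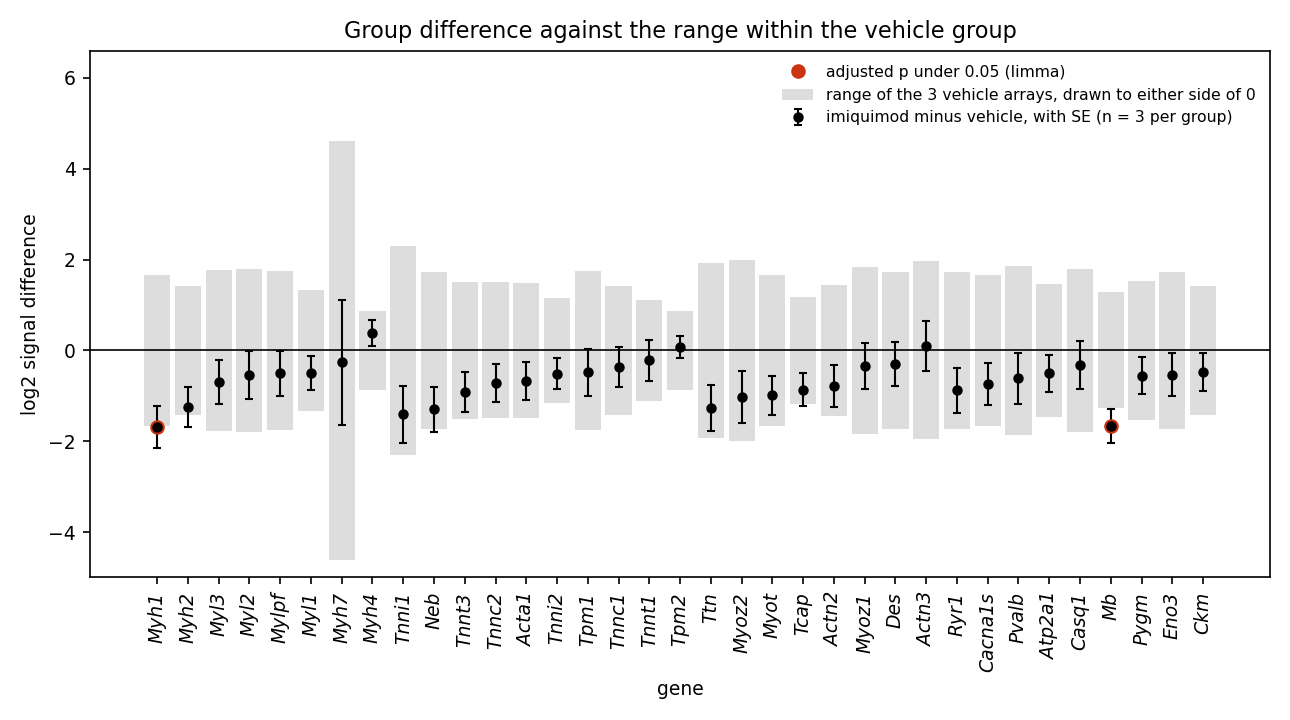
Difference between group means (imiquimod minus vehicle, by the treatment in the array names) for the 35 genes, in log2 units, with SE and n = 3 per group. Grey bars show the range of the 3 arrays named for vehicle, drawn to either side of 0, and red rings mark Mb and Myh1, the 2 genes with an adjusted p under 0.05 and the only ones whose difference lies outside the grey bar.

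The spread had one order across the list. Array 2 named for vehicle was the lowest of its group in 34 of the 35 genes and array 3 the highest in 28, against 41.2% and 45.4% of all genes. Among the arrays named for imiquimod, array 2 was the lowest of its group in 32 genes and array 3 the highest in 22, against 31.6% and 37.5% of all genes. Over all 6 arrays, array 2 named for imiquimod was lowest in 25 genes and array 3 named for vehicle highest in 28. The median deviation of the 35 genes from their own means was 0.43, -0.55 and 1.04 on arrays 1 to 3 named for vehicle and -0.30, -0.79 and 0.10 on arrays 1 to 3 named for imiquimod. Array 2 named for vehicle thus lay below arrays 1 and 3 named for imiquimod, and the groups overlapped. Over all genes tested the same medians lay between -0.02 and 0.03. In bulk samples such as these, fewer muscle fibres in a sample and less of this RNA per fibre cannot be told apart.

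**Figure D2:**
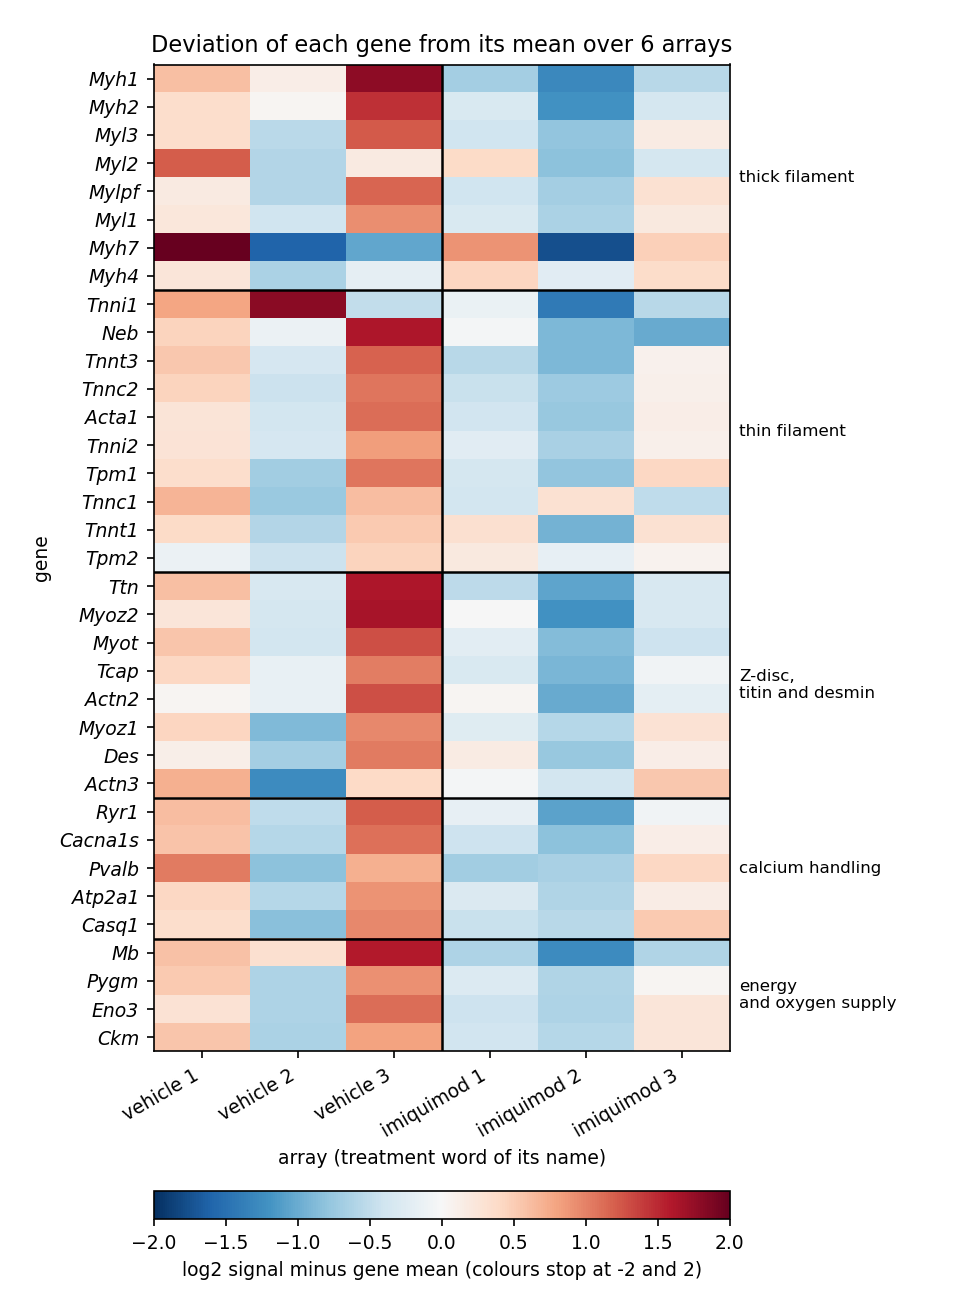
Log2 deviation of each of the 35 genes from its mean over the 6 arrays, with genes in rows grouped by role and arrays in columns (3 named for vehicle, 3 named for imiquimod); colours stop at -2 and 2. The column of array 3 named for vehicle is mostly red and those of array 2 of both groups mostly blue, as their median deviations of 1.04, -0.55 and -0.79 state.

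Among the 8 thick filament genes the median difference was -0.52, and only Myh1 was called, against 23.6% of all genes. The signal of Myh1 was 6.55, 6.09 and 7.75 on arrays 1 to 3 named for vehicle and 5.28, 4.66 and 5.39 on those named for imiquimod. The groups did not overlap, and the lowest array named for vehicle stood 0.70 above the highest named for imiquimod. Myh1 fell by 1.69 (SE 0.45, adjusted p = 0.0450), a 3.22-fold lower mean signal. Its probe lies at chr11:67037938-67037997 of mm9, and the second probe shown above differed by -1.86. With the mean of both probes the adjusted p was 0.0579, and with no filter on dim probes it was 0.0736. With slide as a block, which leaves 1 array named for imiquimod in the comparison, the difference was -1.52. With 1 array left out at a time the adjusted p ranged from 0.0271 to 0.132.

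Myh2, the type IIa heavy chain, had signals of 6.22, 5.91 and 7.33 on the arrays named for vehicle and 5.57, 4.66 and 5.52 on those named for imiquimod. The groups did not overlap, but the difference of -1.24 (SE 0.44) did not pass the adjustment (adjusted p = 0.0907). Its 4 tested probes all differed in the negative direction, by -1.24, -1.13, -1.37 and -0.12, and the last of these was well above background on 3 of the 6 arrays.

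Myh4, the type IIb heavy chain, took the other direction in its mean. Its signals were 7.30, 6.42 and 6.87 on the arrays named for vehicle and 7.48, 6.83 and 7.42 on those named for imiquimod. The groups overlapped, and the difference of 0.38 (SE 0.28, adjusted p = 0.360) did not pass. The other probe differed by 0.34. The difference was 0.05 after quantile normalization and -0.05 without both arrays of status "evaluate", so a direction for Myh4 on this scale is not established.

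The remaining thick filament genes had smaller differences than their spread. The light chains of fast fibres, Mylpf and Myl1, differed by -0.51 and -0.50, and the slow and cardiac light chains Myl3 and Myl2 by -0.69 and -0.54, all at adjusted p between 0.337 and 0.488. The 2 tested probes of Myl3 disagreed: the dimmer one differed by 0.55 and was well above background on 1 array named for vehicle and 3 named for imiquimod. Myh7, the slow heavy chain, had -0.87, -5.49 and -4.92 on the arrays named for vehicle and -3.00, -5.65 and -3.41 on those named for imiquimod. Array 1 named for vehicle stood far above the rest, the groups overlapped, and Myh7 was well above background on only 2 arrays of each group.

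**Figure D3:**
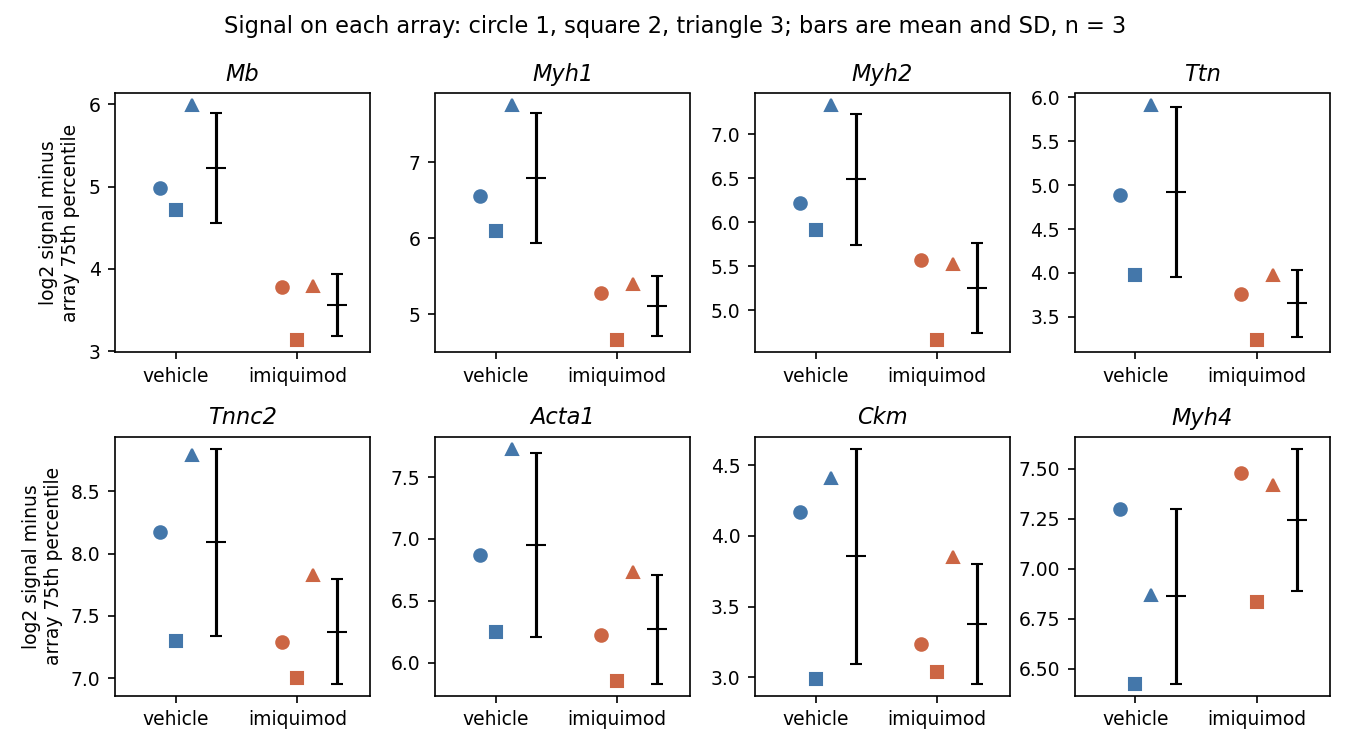
Signal of 8 genes on each array (log2 processed signal minus the array 75th percentile), with circles, squares and triangles for arrays 1, 2 and 3 of each group and bars for mean and SD (n = 3). The groups do not overlap in Mb, Myh1, Myh2 and Ttn, and they overlap in Tnnc2, Acta1, Ckm and Myh4; each panel has its own axis range.

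Set against each other on the same array, the fast heavy chains separated more clearly than any of them alone. Brightness differs between probes, so only the change of such a ratio from array to array can be read, and the pairs were chosen after the values were seen and carry no test. The log2 ratio of Myh1 to Myh4 was -0.75, -0.33 and 0.88 on arrays 1 to 3 named for vehicle and -2.20, -2.18 and -2.03 on arrays 1 to 3 named for imiquimod. The means differed by -2.07, and the ratio varied with an SD of 0.84 among the arrays named for vehicle and 0.09 among those named for imiquimod. The ratio of Myh2 to Myh4 was -1.08, -0.51 and 0.46 against -1.91, -2.18 and -1.90, a difference of -1.62. Neither ratio overlapped between the groups. From the probes printed above, the differences were -2.20 and -1.70, again with no overlap. The remaining probes of Myh2 against the same Myh4 probe gave -1.46 with no overlap and, for the probe near background, -0.45 with overlap. A ratio within an array shows unequal change of the pair, not which gene of the pair changed.

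**Figure D4:**
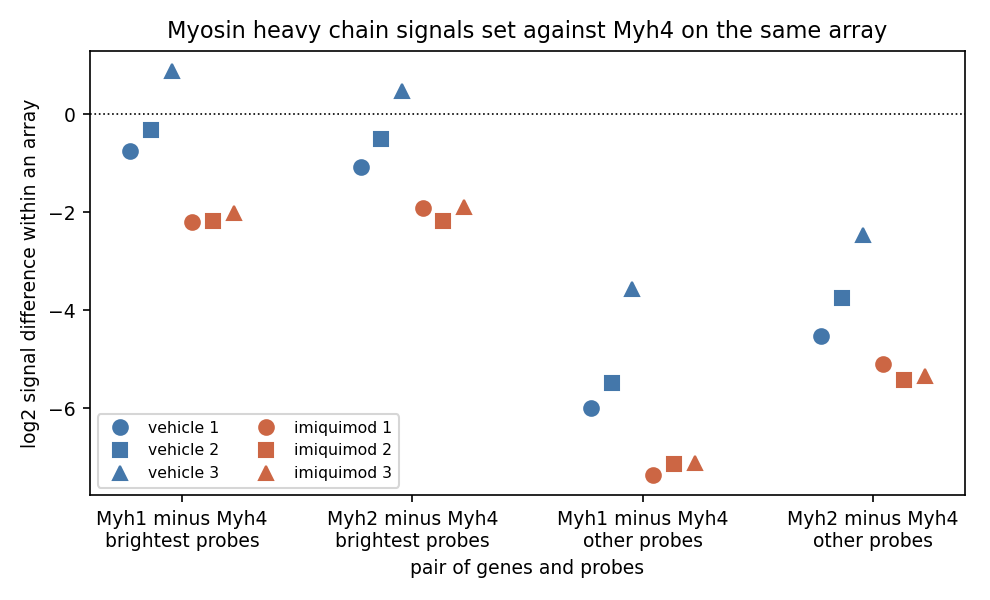
Log2 difference between the signals of Myh1 or Myh2 and of Myh4 on the same array, from the brightest probe of each gene and from the other probes, with 1 point per array (blue for vehicle, orange for imiquimod, by array name). In all 4 pairings each array named for imiquimod lies below each array named for vehicle; the pairs were chosen after the values were seen, and heights of different pairings cannot be set against each other.

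The thin filament genes had a median difference of -0.60. In limma 0 of 10 were called, against 23.6% of all genes, with 1 at an unadjusted p under 0.05, against 39%. Tnnc2, the calcium-binding troponin of fast fibres, had 8.18, 7.30 and 8.80 on the arrays named for vehicle and 7.29, 7.00 and 7.83 on those named for imiquimod, and differed by -0.72 (SE 0.42, adjusted p = 0.255). Acta1, skeletal muscle actin, had 6.87, 6.25 and 7.73 against 6.22, 5.86 and 6.74, and differed by -0.68 (SE 0.42, adjusted p = 0.279). In both genes array 2 named for vehicle lay below array 3 named for imiquimod. Neb, nebulin, which runs along the thin filament, had 3.70, 3.14 and 4.87 against 3.21, 2.37 and 2.25, and differed by -1.29 (SE 0.49, adjusted p = 0.110). Its groups overlapped only through array 2 named for vehicle and array 1 named for imiquimod.

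The other troponin and tropomyosin genes spanned differences from -1.41 to 0.07. Tnni1, the inhibitory troponin of slow fibres, had -2.09, -1.08 and -3.38 on the arrays named for vehicle and -3.03, -4.30 and -3.44 on those named for imiquimod (difference -1.41, SE 0.63, adjusted p = 0.157). By the brightest probes, Tnni1 was the 1 gene of the list in which array 2 named for vehicle was the highest of the 6. Tnnt3, the tropomyosin-binding troponin of fast fibres, differed by -0.91 (adjusted p = 0.180), and Tnni2, the inhibitory troponin of fast fibres, by -0.52 (adjusted p = 0.308). The slow troponins Tnnt1 and Tnnc1 differed by -0.22 and -0.37, and Tpm1, a tropomyosin also made outside skeletal muscle, by -0.48. The other tested probes of Tpm1 differed by -0.77 and -0.78, and in the latter array 2 named for vehicle was the highest of the 6. With its probes averaged Tpm1 differed by -0.68 (adjusted p = 0.0918 in limma, against 0.526 by the brightest probe). Tpm2, also a tropomyosin, had the narrowest spread of the list (SD within groups 0.33), with a difference of 0.07 that became -0.08 after quantile normalization.

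Among the 8 genes of the Z-disc, titin and desmin the median difference was -0.82. In limma 0 were called, against 23.6% of all genes, and 1 had an unadjusted p under 0.05, against 39%. Ttn, titin, the spring that spans from Z-disc to the middle of the sarcomere, had 4.89, 3.98 and 5.91 on the arrays named for vehicle and 3.76, 3.23 and 3.97 on those named for imiquimod. Its groups did not overlap, by a margin under 0.01 between array 2 named for vehicle and array 3 named for imiquimod, and the difference of -1.27 (SE 0.50, adjusted p = 0.118) did not pass. All 9 tested probes of Ttn differed in the negative direction, from -0.74 to -1.47. Without array 2 named for vehicle the adjusted p of Ttn was 0.030, and the difference was -1.74. Tcap, telethonin, which caps titin at the Z-disc, had 6.36, 5.80 and 6.97 against 5.64, 5.03 and 5.87, and differed by -0.86 (SE 0.36, adjusted p = 0.132).

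Myoz2 and Myot, Z-disc proteins that bind alpha-actinin, differed by -1.03 and -0.99 (adjusted p = 0.239 and 0.149). Actn2, the alpha-actinin of all skeletal fibres and heart, differed by -0.78, and Actn3, the alpha-actinin of fast fibres, by 0.10. Actn3 had 3.99, 2.03 and 3.68 on the arrays named for vehicle against 3.25, 2.92 and 3.82 on those named for imiquimod, so the highest array was at 3.99 in one group and 3.82 in the other. Its difference was -0.51 without array 2 named for vehicle and -0.66 without both arrays of status "evaluate". Myoz1, the fast-fibre relative of Myoz2, and Des, desmin, the intermediate filament of muscle, differed by -0.34 and -0.31, each at an adjusted p over 0.65.

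The 5 calcium-handling genes had a median difference of -0.62. In limma 0 were called, against 23.6% of all genes, and 0 had an unadjusted p under 0.05, against 39%. Ryr1, the calcium release channel of the sarcoplasmic reticulum, had 2.63, 1.5 and 3.23 on the arrays named for vehicle and 1.84, 0.95 and 1.94 on those named for imiquimod (difference -0.88, SE 0.50, adjusted p = 0.244). Cacna1s, the voltage sensor that opens it, differed by -0.74 (adjusted p = 0.294). Atp2a1, the pump that returns calcium to the reticulum, had 5.55, 4.57 and 6.04 against 4.85, 4.53 and 5.28 and differed by -0.50 (adjusted p = 0.404). Pvalb, the calcium buffer of fast fibres, had 3.11, 1.25 and 2.78 against 1.38, 1.43 and 2.48, so that array 2 named for vehicle was the lowest of the 6. Casq1, which stores calcium in the reticulum, differed by -0.32 (adjusted p = 0.693).

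Of the 4 genes of energy and oxygen supply, Mb was called, against 23.6% of all genes, and Ckm, Eno3 and Pygm were not. Mb, read by a probe at chr15:76846069-76846128 (mm9, minus strand), had 4.98, 4.71 and 5.99 on arrays 1 to 3 named for vehicle and 3.78, 3.13 and 3.79 on those named for imiquimod. The groups did not overlap, and the lowest array named for vehicle stood 0.92 above the highest named for imiquimod. Mb fell by 1.66 (SE 0.37, adjusted p = 0.0276), a 3.16-fold lower mean signal. With slide as a block, which leaves 1 array named for imiquimod in the comparison, the difference was -1.45. With 1 array left out at a time the adjusted p in limma ranged from 0.0229 to 0.0888. Ckm, the muscle creatine kinase, had 4.17, 2.98 and 4.41 against 3.24, 3.04 and 3.85 and differed by -0.48 (SE 0.42, adjusted p = 0.442). Eno3, the muscle enolase, differed by -0.53 and Pygm, the muscle glycogen phosphorylase, by -0.55 (adjusted p = 0.445 and 0.367). The log2 ratio of Mb to Ckm, chosen after the values were seen, was 0.81, 1.73 and 1.57 on the arrays named for vehicle and 0.54, 0.09 and -0.06 on those named for imiquimod, with no overlap and no test.

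Genes of fast and of slow fibres had similar medians in the main fit. The 11 genes of fast fibres had a median difference of -0.52 with 1 called, against 23.6% of all genes. The 7 genes of slow fibres had a median of -0.54 with 0 called. At an unadjusted p under 0.05 in limma there were 2 fast and 0 slow genes, against 39% of all genes. The fast and slow medians were -0.68 and -0.44 after quantile normalization and -0.54 and -0.36 with normexp background correction. With the filter on all 6 arrays they were -0.52 and -0.69. The slow genes had the wider spread, with a median SD within groups of 0.77 against 0.64 for the fast ones. The slow list held dim genes: Myh7, Tnnc1, Myl2 and Tnni1 had means of -3.76, -5.39, -3.12 and -2.18 on the arrays named for vehicle. The part of dim signal in this spread was not tested. The difference between fast and slow genes was not tested.

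The median deviation of the 35 genes from their own means on an array was then subtracted from each of them. Much of the spread between arrays was removed, as it must be in part because each gene enters that median. The median SD within groups was 0.21 in place of 0.67, and it was smaller for 31 of the 35 genes. This scale was chosen after the values were seen and has no test. On it Cacna1s had 3.83, 3.66 and 3.75 on the arrays named for vehicle and 3.58, 3.66 and 3.71 on those named for imiquimod, and Tnnc2 had 7.75, 7.84 and 7.76 against 7.59, 7.79 and 7.73. These genes kept nearly one level relative to the list on all arrays. Myh1 had 6.12, 6.64 and 6.71 against 5.58, 5.45 and 5.30, a difference of -1.05, and Mb had 4.55, 5.26 and 4.95 against 4.08, 3.92 and 3.69, a difference of -1.02. Myh4 had 6.87, 6.97 and 5.83 against 7.78, 7.62 and 7.32, a difference of 1.02. Myh1 and Mb thus had the lowest differences on this scale and Myh4 the highest. The subtracted median was itself lower on average on the arrays named for imiquimod, so genes that fell less than it must move up on this scale. Every array named for imiquimod lay below every array named for vehicle in 5 genes (Mb, Myh1, Myot, Tnnt3 and Ttn). The reverse held in 4 (Atp2a1, Des, Myh4 and Myoz1), against 0 before the subtraction. Before it, Atp2a1, Des and Myoz1 differed by -0.50, -0.31 and -0.34. The directions on this scale are therefore set in part by the subtraction. This scale has no share over all genes to set beside these counts, so they are no result about these genes.

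Other genes of skeletal muscle, listed by function but with earlier results of these data known, had a like spread. Of 54 such genes 52 were tested, 48 differed in the negative direction, and the median difference was -0.83 with a median SD within groups of 0.70. Their median deviation was 0.45, -0.43 and 1.22 on arrays 1 to 3 named for vehicle and -0.25, -0.91 and -0.02 on those named for imiquimod, the same order of arrays as for the contractile genes. In limma 3 passed as lower and 1 as higher, where 10.5% and 13.1% of all genes did, so the share called was below the background. The number called was 17 without array 2 named for vehicle, where 26.3% of all genes were called. It was 2 without array 1 named for vehicle (9.53% of all genes) and 2 without any 1 array named for imiquimod (10% to 10.6%). Fbxo32, a ubiquitin ligase of muscle protein breakdown, had 1.43, 0.94 and 2.00 against -0.51, -0.16 and -0.33 and fell by 1.79 (SE 0.28, adjusted p = 0.01). Trim63, another such ligase, had 1.25, 0.43 and 2.03 against -0.27, -0.39 and -0.34 and fell by 1.57 (SE 0.39, adjusted p = 0.0368). Dmd, dystrophin, which ties the fibre's cytoskeleton to its membrane, had -0.13, -0.29 and -0.43 against -2.18, -1.77 and -1.74 and fell by 1.61 (SE 0.16, adjusted p = 0.00318). In Dmd array 3 named for vehicle was the lowest of its group, unlike in 34 of the 35 contractile genes.

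The 3 highest differences of that list were those of acetylcholine receptor subunits of the nerve-muscle junction. Chrnd had -4.75, -4.67 and -4.55 on the arrays named for vehicle and -4.28, -4.02 and -4.23 on those named for imiquimod, and rose by 0.48 (SE 0.12, adjusted p = 0.0378). Its signal was dim, though well above background on all 6 arrays. With normexp background correction 3 genes of this list were called in place of 4, where 23.5% of all genes were. Chrne and Chrna1 differed by 0.36 and 0.34 and did not pass (adjusted p = 0.197 and 0.696). Slide as a block leaves 1 array named for imiquimod, so whether the calls of this list hold with slide allowed for cannot be decided.

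Of 12 embryonic and myogenic genes 10 were tested, and Pax3 was called lower, where 10.5% of all genes were. Pax3 and Myod1 are named after their values were seen. Myod1, the transcription factor that sets the muscle fate, had -4.15, -4.79 and -2.94 on the arrays named for vehicle, and was well above background on 0 arrays named for imiquimod. It passed the filter on dim probes only through the arrays named for vehicle, so it is not counted as called. Its mean signal was at least 4.09-fold lower on the arrays named for imiquimod, with the floor of an array set at its dimmest signal that is still well above background. Pax3, a regulator of muscle precursors that is also made in pigment cells, had -3.05, -2.86 and -3.70 against -4.38, -4.19 and -4.02 and fell by 1.00 (SE 0.24, adjusted p = 0.0342). Myh8, the perinatal heavy chain, whose gene lies beyond Myh4, had 8.20, 7.60 and 8.51 against 8.02, 7.55 and 8.17, and differed by -0.19 (adjusted p = 0.652).

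Relatives of the contractile genes that other tissues use had a positive median difference. Of 19 tested, 5 rose and 0 fell, where 13.1% of all genes rose and 10.5% fell, with a median difference of 0.26 and a median SD within groups of 0.21. Eno1, the enolase of most tissues, had -0.06, 0.38 and -0.01 on the arrays named for vehicle and 2.06, 1.94 and 1.59 on those named for imiquimod, and rose by 1.76 (SE 0.19, adjusted p = 0.00340), whereas Eno3 differed by -0.53. Tpm3, a tropomyosin of non-muscle cells and slow fibres, and Pygl, the liver glycogen phosphorylase, rose by 0.62 and 0.52 (adjusted p = 0.0131 and 0.0182). Ckb, Atp2a2, Casq2, Actn1 and Myh9 did not pass, with differences from -0.39 to 0.49, and Ryr3 was too dim to test.

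Several other lists shared the order of the arrays named for vehicle, with array 2 lowest and array 3 highest. That order held for 28 of the 35 contractile genes and 48 of the 52 other skeletal muscle genes, against 32.6% of all genes. It also held for 9 of 10 fat cell, 7 of 8 fibroblast, 7 of 8 endothelial and 7 of 10 smooth muscle markers. The same order was seen in 6 of 10 embryonic and myogenic genes, 4 of 7 nerve and Schwann cell markers and 4 of 7 macrophage and neutrophil markers. In other lists it was rarer, with 1 of 8 keratinocyte markers, 1 of 7 heart muscle markers and 2 of 19 relatives used by other tissues. The 10 fat cell markers had a median difference of -0.41, and all 10 were negative, against 48.0% of all genes. In limma 1, Lep, passed as lower, where 10.5% of all genes did (difference -2.07, adjusted p = 0.00548). Lep is named after its value was seen. Their summed level, in units of the array's 75th percentile signal, was 420, 271 and 565 on arrays 1 to 3 named for vehicle and 256, 349 and 300 on those named for imiquimod. The summed level of the 35 contractile genes was 1681, 1020 and 2658 against 1106, 811 and 1396. Cfd, an adipocyte protease, had 7.64, 6.72 and 8.10 against 6.94, 7.24 and 7.03, and Fabp4, the fatty acid carrier of adipocytes, 6.71, 6.44 and 7.00 against 6.08, 6.61 and 6.42. The part of these markers in the contractile values was not tested.

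Smooth muscle markers differed less. Of the 10, 0 were called in limma, against 23.6% of all genes in either direction, at a median difference of -0.27. An unadjusted p under 0.05 was found in 3, against 39.0% of all genes. Acta2, smooth muscle actin, had 4.45, 4.17 and 5.34 against 4.50, 4.25 and 4.32, and Tagln, transgelin, 4.58, 4.91 and 4.06 against 3.60, 3.44 and 4.03. Acta2 followed the order of most markers of this list among the arrays named for vehicle, and Tagln did not. Of the 7 heart muscle markers tested, 2 were called higher and 1 lower, against 13.1% and 10.5% of all genes. Their summed level was 1.06 to 1.33 on the arrays named for vehicle and 1.98 to 2.45 on those named for imiquimod.

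Markers of several other cell types rose on the arrays named for imiquimod. The counts here are of genes called in limma, where 13.1% of all genes were called higher and 10.5% lower. Endothelial markers rose in 6 of 8 genes with a median difference of 1.19, and fibroblast markers rose in 5 of 8 with a median of 0.66. Keratinocyte markers rose in 3 and fell in 1 of 8 (median 0.40), and macrophage and neutrophil markers rose in 5 of 7 tested (median 2.74). Of 7 nerve and Schwann cell markers tested, 1 rose and 1 fell. The summed levels of the keratinocyte markers were 887 to 1148 on the arrays named for vehicle and 1704 to 1927 on those named for imiquimod, and those of the macrophage and neutrophil markers were 17.4 to 50.6 and 824 to 952. The part of these changes in the contractile values was not tested.

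**Figure D5:**
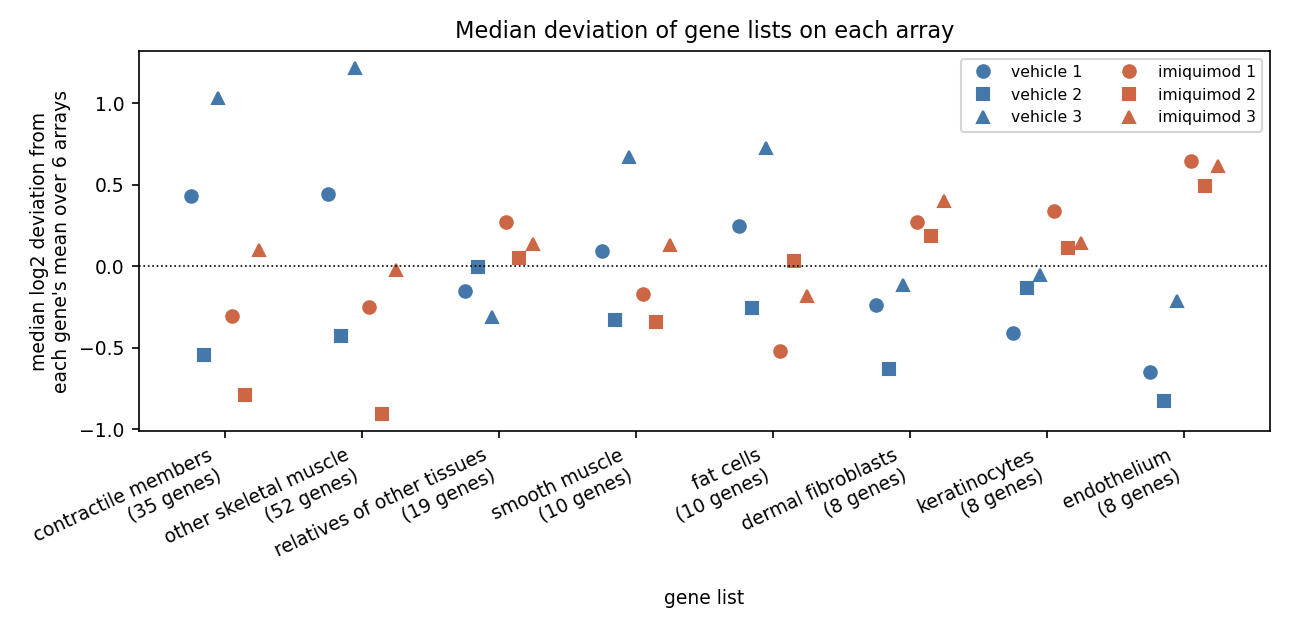
Median log2 deviation of the genes of each list from their own means, for each of the 6 arrays (blue for the 3 named for vehicle, orange for the 3 named for imiquimod). Of the 8 lists drawn, the contractile genes and the other skeletal muscle genes span the widest range. In these lists array 3 named for vehicle is at 1.04 and 1.22 and array 2 named for imiquimod at -0.79 and -0.91. The groups do not overlap in the medians of the endothelial, fibroblast and keratinocyte markers and of the relatives of other tissues.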

How the data were processed

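Per the labels, total RNA of whole back skin was extracted with TRIzol, amplified to Cy3-labelled cRNA and hybridised to Agilent arrays. The authors deposited 1 scanner file per sample with intensity values (a processed signal, background-subtracted and detrended per the file headers) and 1 value table, which is on a log2 scale by its slope of 0.973 to 1.01 against the log2 signal, and whose centring the authors do not state (deposited column medians are all 7.05). The file headers name Feature Extraction 10.7.3.1, and the submitters' processing notes name version 9.1.

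Of 43379 spots that are not controls, 322 with outlier marks were left out. The test took probes that 3 or more of the 6 arrays showed well above background, and each gene was read by its brightest probe. The group comparison used lmFit and eBayes of limma 3.58.1 under R 4.3.3 (two-sided, Benjamini-Hochberg over 17779 genes at 0.05). The steps were tested on simulated data. Slide 2 held 1 group only. Over the 17779 genes, same-numbered arrays deviated together at correlations of -0.09, 0.07 and 0.09. In the contractile list array 2 was the lowest of its group in 34 (vehicle) and 32 (imiquimod) of the 35 genes. The correlations over all genes therefore cannot decide whether the numbers pair the samples.

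The 35 genes and the other lists were chosen with earlier results of these data known. Beside the 35, the text names the 3 highest and 3 lowest differences of the other skeletal muscle genes, the 2 genes of highest signal in each cell type list and in the embryonic and myogenic list (not all are reported), 9 listed relatives, and Krt6b and Lcn2. Exceptions are stated. Pathway and cell type lists are described by counts and medians. Alternatives were another normalization, background correction, dim filter, probe rule, variance model, the value table, slide, replicate number and each array left out; leaving out both arrays of status "evaluate" was added after the data were seen. The annotation of mm9 was not used here.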

Additional observations from a re-analysis of the deposited data

How the results depend on the processing

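Of the 35 contractile genes, Mb and Myh1 stayed called with quantile normalization, normexp, a filter on all 6 arrays, a variance trend and the value table. The number called was 1 (Mb) with no filter on dim probes and with probes of a gene averaged, 0 with slide as a block, 0 within slide 1 alone and 0 without both arrays of status "evaluate", the last chosen after seeing the data. It ranged from 0 to 7 with 1 array left out. Of all genes, 22.3% to 25.3% were called in the settings where both Mb and Myh1 stayed called. The share was 10.5% of 27299 genes with no filter on dim probes and 22.5% with probes of a gene averaged, against 23.6%. For the other skeletal muscle genes the number was 2 with no filter on dim probes, 1 with slide as a block, 0 within slide 1 and 2 to 17 with 1 array left out, against 4. Over all genes it was 1064 with slide as a block, 8 within slide 1 and 1694 to 4678 with 1 array left out, against 4196. Slide 2 held 1 group, so slide as a block and slide 1 alone both rest on 1 array named for imiquimod. They give equal estimates, differ in residual degrees of freedom and cannot decide whether the calls hold. With the replicate number as a block, 4 contractile genes were called (Mb, Myh1, Tcap and Tnnt3), 8 other skeletal muscle genes and 2207 of all genes.

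The median difference of the 35 genes was negative under every alternative run, from -0.29 without array 3 named for vehicle to -1.0 without array 2 named for vehicle. Their median SD within groups ranged from 0.46 without both arrays of status "evaluate" to 0.85 within slide 1. No sign changed among genes that were called. Among the others, the difference of Tpm2 became -0.075 with quantile normalization and -0.079 with the value table. With slide as a block and within slide 1, Myh7 became 0.76, Myl2 0.11, Tnnt1 0.21 and Des 0.0095. Without both arrays of status "evaluate", Myh4 became -0.054 and Actn3 -0.66. With 1 array left out, differences ranged from -0.12 to 0.31 for Tpm2, -1.13 to 1.18 for Myh7, -0.51 to 0.47 for Actn3, -0.86 to 0.052 for Myoz1, -0.82 to 0.084 for Casq1, -0.73 to 0.13 for Des and -0.56 to 0.20 for Tnnt1. The cause of these changes was not tested. Signal near background limits Myh7 and Tnnc1. Medians of other lists moved too. The keratinocyte median was 0.14 with quantile normalization, 0.12 with the value table and 0.61 without both arrays of status "evaluate". The fibroblast median was 0.34 with quantile normalization and with the value table, and 0.94 with probes of a gene averaged. The median of the relatives was 0.10 with quantile normalization and with the value table, and 0.47 with slide as a block.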
